A study of Mus musculus with 24 samples.

Results

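The genes described here encode the major histocompatibility complex (MHC) class I pathway and the immunoproteasome: H2-K1, H2-D1, B2m, Tap1, Tap2, Tapbp, Nlrc5, Psmb8, Psmb9 and Psmb10. They were taken as the rows of the islet mRNA sequencing table that carry these symbols, and all 10 were found among its 41549 genes. All 10 also passed the filter on low counts that left 15916 genes for testing. MHC class I molecules display peptides from proteins made inside the cell to CD8+ T cells, and beta-cells with high class I levels are a known feature of islets in type 1 diabetes. Peptides are cut by the proteasome, carried into the endoplasmic reticulum by the TAP transporter and loaded onto a heavy chain paired with beta-2-microglobulin. Interferons raise most of these genes, through STAT and IRF factors and through the transactivator NLRC5, and exchange 3 catalytic proteasome subunits for the immunoproteasome forms.

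The libraries came from dispersed pancreatic islet cells of wild-type mice, and the study's methods list male and female C57BL/6NRj mice of 12 to 14 weeks as its wild-type stock for such cells. Every library was transfected with 50 pmol of an antisense oligonucleotide (ASO), either a control (Ctr) or one directed against the 5' tRNA fragment of tRNA-Glu(CTC) (αGlu), and was then kept for 48 h in 0.75% bovine serum albumin (BSA) or in 0.5 mM palmitate (PA) bound to BSA. The 4 groups, named Ctr BSA and Ctr PA for the control ASO and αGlu BSA and αGlu PA for the other, held 6 libraries each, so that the controls were also transfected and also held albumin. The records put S1 to S12 in batch 1 and S13 to S24 in batch 2, 3 libraries of every group in each, without a word on how the batches arose. The study describes its replicates as independent experiments. Its reporting summary says, for cell line and islet cells together, that the groups of a replicate came from the same passage or the same animal. The labels do not tell which libraries belong together, so no fit here is paired by animal and the p-values measure the spread between these libraries. Total counts ran from 18214719 to 35001979 per library (median 26701202).

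The groups labelled αGlu differ from Ctr by the oligonucleotide, which is shown because every αGlu comparison rests on it. Capitals in the target mark the bases complementary to the oligonucleotide, which are positions 2 to 21 of the target counted from its 5' end.
αGlu oligonucleotide: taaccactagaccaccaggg
tRNA-Glu(CTC) fragment targeted: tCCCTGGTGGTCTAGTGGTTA

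Of the 10 genes, 7 lie on mouse chromosome 17, in the MHC, within 1351601 bases. Psmb9, Tap1, Psmb8 and Tap2 stand side by side over 34335 bases there, and Psmb9 and Tap1 run in opposite directions from a shared start region. Promoters were read from RefSeq windows on GRCm38.p6, over the 250 bases before the start annotated in RefSeq. The submitters' processing notes name the build as GRCm38. The gene coordinates given below are GENCODE models, whose starts can differ. The windows of H2-D1, Tapbp, Psmb8 and Psmb9 lay inside these models, so they do not cover the bases before them. Windows were found for 8 genes and not for Tap2 and Nlrc5. Class I promoters are known for a kappa B site, an interferon-stimulated response element and an SXY module that binds RFX, CREB and NF-Y factors and recruits NLRC5. The pieces of the H2-K1 and H2-D1 promoters that hold such letters are printed first, because these heavy chain genes changed alike. The first pair runs from GGGGATTCCCC, a kappa B site, to TTTCACTTC, an imperfect response element, and the second pair from TGACGC, the core of an X2 box, to ATTGG, a Y box (CCAAT) on the other strand. The matched letters are in capitals. The H2-K1 pieces lie at chr17:34000429-34000458 and chr17:34000359-34000388 on the minus strand, and the H2-D1 pieces at chr17:35262923-35262952 and chr17:35262993-35263022 on the plus strand.
H2-K1, kappa B site to response element: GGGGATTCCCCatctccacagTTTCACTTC
H2-D1, kappa B site to response element: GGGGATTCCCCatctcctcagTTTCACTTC
H2-K1, X2 to Y box: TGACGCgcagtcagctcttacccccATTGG
H2-D1, X2 to Y box: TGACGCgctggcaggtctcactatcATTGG

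The first pair differs at 1 base and the second at 7. Over the 120 bases around all 4 motifs, which have equal spacing in both genes, H2-K1 and H2-D1 were identical at 108 positions. Outside this stretch, the H2-D1 window held a further CCAAT at -53 to -49 from its start, and the H2-K1 window held no further Y box. GGGGATTCCCC was copied from the H2-K1 window, so its match there was set in advance. TTTCACTTC was also added after the sequences were seen. Their rarity is therefore a description and not a test. The kappa B motif and response element core planned before the sequences were seen, described below for B2m, matched neither heavy chain window. Among the members' windows, only that of B2m held them. Both GGGGATTCCCC and TTTCACTTC stood in 4 of all 32851 mouse promoter windows, of which 2 belong to H2-K1, 1 to H2-D1 and 1 to H2-Q6, another class I gene. On either strand, GGGGATTCCCC was found in 0.0304% of the windows, TTTCACTTC in 0.402%, TGACGC in 6.12% and CCAAT in 33.8%.

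The B2m stretch of chr2:122147538-122147648 on the plus strand is shown for comparison, since B2m encodes the chain that every class I heavy chain needs. Its capitals mark the core of the interferon-stimulated response element (GAAA and GAAA with 2 bases between them), then a kappa B motif on the other strand (GGGA, TT and CC with 1 base between each), then TGACG, an X2 box without its last base, and a Y box.
B2m: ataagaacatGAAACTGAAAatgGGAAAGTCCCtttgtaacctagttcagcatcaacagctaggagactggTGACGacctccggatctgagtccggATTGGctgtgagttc

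The response element core, this kappa B motif and TGACG were held by 2.98%, 0.980% and 17.8% of all windows, with the Y box share given above. In the 250 bases before Tap1, only CCAAT and TGACG were found of the 8 motifs searched, and 225 of these bases are shared with the window of Psmb9 on the opposite strand, which therefore held the same matches. The Psmb8 window held a gamma-activated site, TTCNNNGAA, a motif of 7.02% of windows. The Tapbp window held only CCAAT, and that of Psmb10 held none of the 8. The matches describe these windows and were not tested for binding.

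Length-normalised levels spanned a wide range. In Ctr BSA, H2-K1 was the highest at 389 ± 49.0 TPM (transcript abundance scaled for length and library size by the authors, mean ± SD, n = 6), followed by H2-D1 at 281 ± 30.4, B2m at 240 ± 63.1 and Tapbp at 141 ± 16.1. H2-K1 ranked 168th among all genes of the table by mean TPM in this group. A gap of 7.69-fold separated Tapbp from Tap2 at 18.4 ± 2.57. Psmb10 followed at 15.5 ± 3.22, Tap1 at 10.1 ± 1.89, Psmb8 at 9.15 ± 1.87 and Psmb9 at 4.64 ± 0.623, and Nlrc5 was the lowest at 0.835 ± 0.339. The ranges of libraries overlapped between the neighbours H2-D1 and B2m, Tap2 and Psmb10, Psmb10 and Tap1, and Tap1 and Psmb8, but not between the other neighbours in this order. The 4 genes above the gap kept the same order in all 4 groups. Counts behind these levels ran from 7721 to 20021 reads per library for H2-K1, and from 27 to 171 for Nlrc5.

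Palmitate raised the class I heavy chains and lowered Tap1 in Ctr cells. H2-K1 and H2-D1 rose by 26.1% and 27.9%, and Tap1 fell by 18.8%, while the other 7 genes did not pass the test. The same 3 genes passed in αGlu cells. In each comparison 2 of the 10 rose, where 15.5% (Ctr) and 14.4% (αGlu) of all tested genes did, and 1 fell, where 14.5% and 14.2% did, so the shares were close to those of the transcriptome. None of the 10 passed with a fold above 2 and an unadjusted p below 0.05, beside 5.91% of all genes in Ctr and 5.57% in αGlu cells. Changes were fitted with edgeR to all 24 libraries, with a term for batch, and p-values from the two-sided quasi-likelihood test were adjusted over the 15916 genes. The ranges of BSA and PA libraries overlapped for each of the 10 genes, whereas PA lay wholly above BSA for 2.97% and wholly below it for 2.86% of all genes in Ctr cells, and for 4.17% and 3.95% in αGlu cells.

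**Figure D1:**
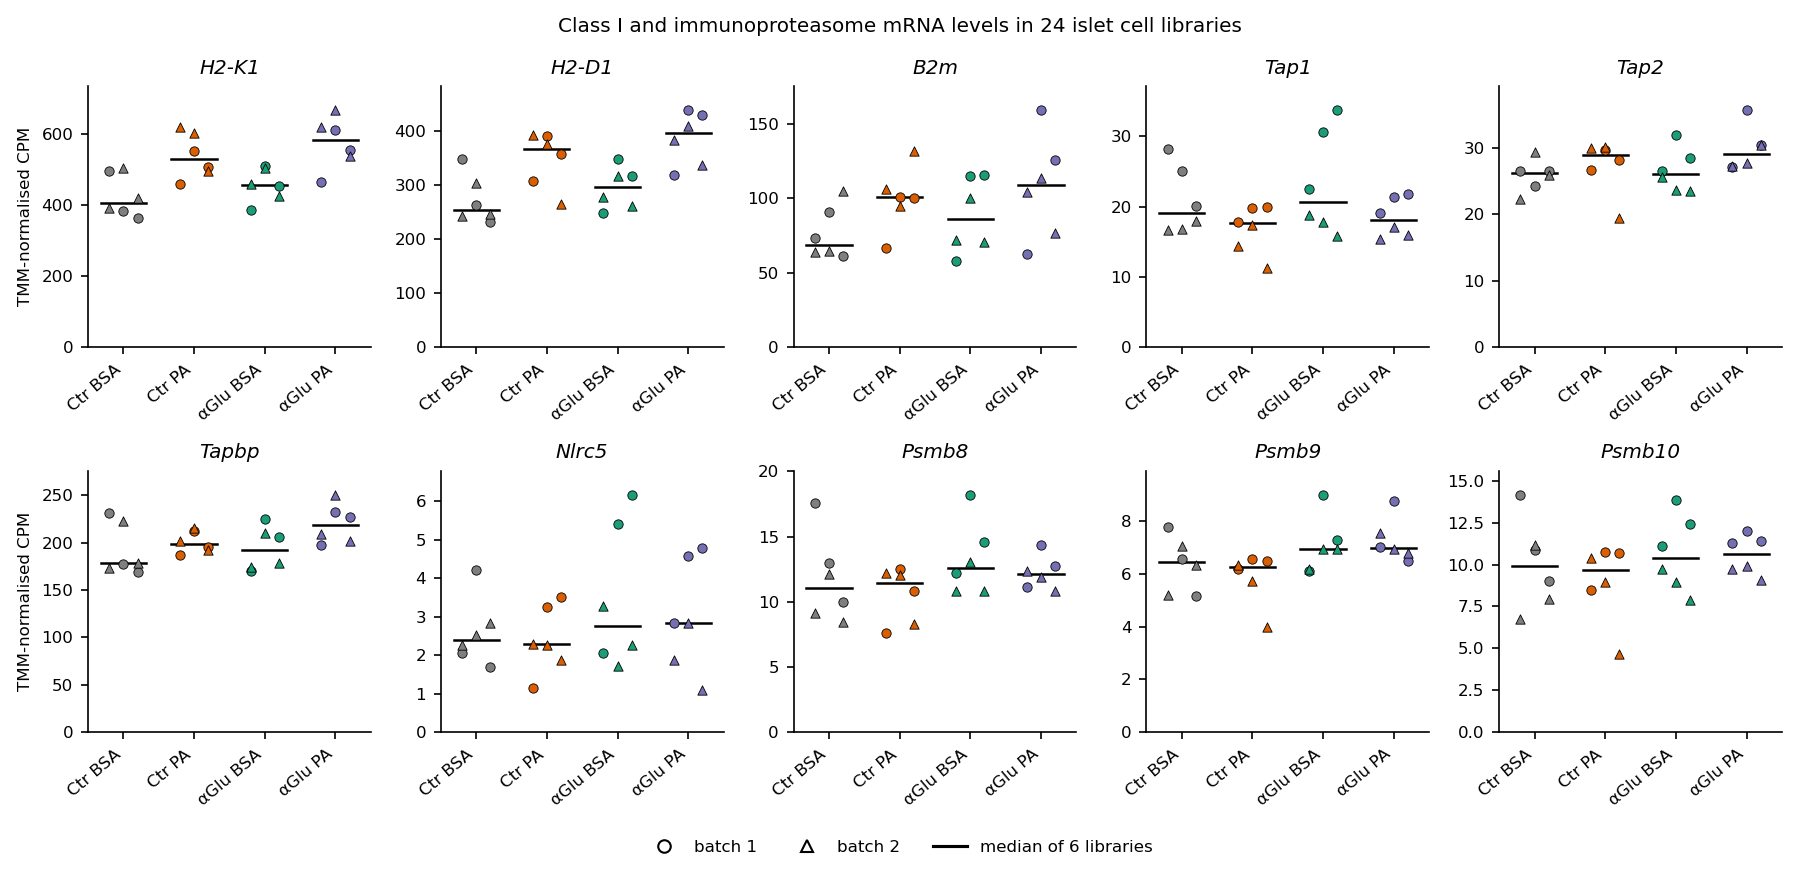
Counts scaled to library size (TMM-normalised CPM, y axis, from 0) of the 10 genes in every library, by group, with circles for batch 1, triangles for batch 2 and a line at the median of 6 libraries. The PA groups of H2-K1 and H2-D1 lie above the BSA medians, and the batch 1 libraries of Tap1 lie above those of batch 2 in every group.

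H2-K1 (ENSMUSG00000061232, chr17:33996017-34000347, minus strand, up to 8 exons) encodes the class I heavy chain K. Its level ran from 364 to 505 CPM in Ctr BSA (median 406) and from 459 to 619 in Ctr PA (median 529). With αGlu the range was 387 to 511 CPM in BSA (median 457) and 466 to 669 CPM in PA (median 583). All 6 Ctr PA libraries lay above the Ctr BSA median and 4 lay above every Ctr BSA library, and of the αGlu PA libraries 5 lay above every αGlu BSA library, while the ranges overlapped in part. In Ctr cells the shared span ran from 459 to 505 CPM and held 2 BSA and 2 PA libraries. The log2 fold change was 0.34 in Ctr cells (SE 0.092, adjusted p = 0.00734) and 0.33 in αGlu cells (SE 0.092, adjusted p = 0.00799).

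H2-D1 (ENSMUSG00000073411, chr17:35262730-35267499, plus strand, up to 8 exons) encodes the heavy chain D. It ran from 231 to 348 CPM in Ctr BSA (median 254) and from 265 to 392 in Ctr PA (median 366). The αGlu libraries spanned 248 to 347 CPM in BSA (median 296) and 318 to 438 CPM in PA (median 395). In both PA groups all 6 libraries lay above the BSA median and 4 lay above every BSA library. The log2 fold change was 0.35 in Ctr cells (SE 0.111, adjusted p = 0.0179) and 0.39 in αGlu cells (SE 0.111, adjusted p = 0.00998).

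Both calls held with every single library left out, with log2 fold changes of 0.30 to 0.40 (H2-K1) and 0.31 to 0.43 (H2-D1) in Ctr cells. Within a batch both genes kept the direction, at 0.28 and 0.38 for H2-K1 and 0.32 and 0.39 for H2-D1 in Ctr cells, with adjusted p from 0.0528 to 0.263 over 3 libraries a group. In αGlu cells the values were 0.26 and 0.40 for H2-K1 and 0.37 and 0.41 for H2-D1, of which that of H2-K1 in batch 2 passed. The αGlu PA libraries of both genes lay above all αGlu BSA libraries within batch 2, as did 18.9% of all genes. Class I heavy chains are near-identical in parts: 9.63% of the 50-base words of H2-K1 transcripts and 12.8% of those of H2-D1 also occur in transcripts of other genes, so counts of both can include or lose reads of paralogs.

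B2m (ENSMUSG00000060802, chr2:122147686-122153083, plus strand, up to 4 exons), the light chain, ran from 61.1 to 105 CPM in Ctr BSA (median 68.9) and from 66.6 to 132 in Ctr PA (median 100.9). The αGlu libraries spanned 58.1 to 115 CPM in BSA (median 86.2) and 62.8 to 159 CPM in PA (median 109). The groups overlapped over most of their range. Its log2 fold changes with PA were 0.39 (SE 0.206, adjusted p = 0.158) and 0.27 (SE 0.204, adjusted p = 0.343), with 95% intervals from -0.04 to 0.82 and from -0.15 to 0.70. The spread of B2m between libraries was thus wide enough to hold both no change and a change larger than that of the heavy chains.

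Tap1 (ENSMUSG00000037321, chr17:34187553-34197225, plus strand, up to 12 exons) encodes a subunit of the peptide transporter of the endoplasmic reticulum. It ran from 16.7 to 28.2 CPM in Ctr BSA (median 19.1) and from 11.3 to 19.97 in Ctr PA (median 17.6). After αGlu, values of 15.9 to 33.8 CPM in BSA (median 20.7) compared with 15.4 to 21.8 CPM in PA (median 18.1). The groups overlapped over all libraries, but within batch 1 every PA library lay below every BSA library of the same ASO, as for 12.9% of all genes in Ctr and 16.1% in αGlu cells. The log2 fold change was -0.30 with either ASO (SE 0.105, adjusted p = 0.0331 in Ctr and SE 0.104, adjusted p = 0.0306 in αGlu cells). In batch 1 it was -0.35 in Ctr and -0.49 in αGlu cells, and in batch 2 -0.25 and -0.11, none past the test in a batch alone. The Ctr call was lost without any of 7 single libraries (S1, S3, S5, S7, S11, S21 or S23), where the log2 fold change lay between -0.30 and -0.25 and the adjusted p rose as far as 0.0790. The αGlu call was lost without any of 6 (S2, S4, S6, S8, S12 or S16), with a log2 fold change between -0.30 and -0.22 and an adjusted p as high as 0.108. Neither call held without the batch term (adjusted p = 0.269 and 0.237), and that in Ctr cells did not hold in the fit of the Ctr groups alone (adjusted p = 0.0527). The first 212 bases of Tap1 overlap Psmb9 on the opposite strand, and whether the authors' counting used the strand is not given in the sources used here.

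Tap2 (ENSMUSG00000024339, chr17:34203527-34216321, plus strand, up to 12 exons), the partner subunit of TAP1, ran from 22.3 to 29.3 CPM in Ctr BSA (median 26.3) and from 19.5 to 30.2 in Ctr PA (median 28.9). After αGlu, values of 23.5 to 31.9 CPM in BSA (median 26.1) compared with 27.1 to 35.7 CPM in PA (median 29.0). Its log2 fold changes were 0.08 (SE 0.093, adjusted p = 0.540) and 0.16 (SE 0.093, adjusted p = 0.191). The 2 subunits of the transporter thus had fitted changes of opposite sign with PA, of which only that of Tap1 passed. The difference between the 2 genes was not tested.

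Tapbp (ENSMUSG00000024308, chr17:33915899-33929292, plus strand, up to 8 exons) encodes tapasin, which bridges the transporter and the heavy chain. It ran from 169 to 231 CPM in Ctr BSA (median 178) and from 187 to 215 in Ctr PA (median 199). With αGlu the range was 171 to 225 CPM in BSA (median 192) and 197 to 251 CPM in PA (median 218). All 6 PA libraries lay above the BSA median with either ASO, but the ranges overlapped. The log2 fold changes were 0.06 (SE 0.085, adjusted p = 0.601) and 0.18 (SE 0.085, adjusted p = 0.119).

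Nlrc5 (ENSMUSG00000074151, chr8:94434356-94527272, plus strand, up to 53 exons), the class I transactivator, ran from 1.69 to 4.21 CPM in Ctr BSA (median 2.39) and from 1.16 to 3.50 in Ctr PA (median 2.28). With αGlu the range was 1.71 to 6.17 CPM in BSA (median 2.76) and 1.09 to 4.79 CPM in PA (median 2.83). Its PA log2 fold changes of -0.15 and -0.22 came with the widest intervals of the 10 genes, from -0.81 to 0.51 and from -0.87 to 0.42. Both intervals hold changes as large as that of H2-K1 in either direction.

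The immunoproteasome subunits did not pass the test with PA. Psmb8 (ENSMUSG00000024338, chr17:34197721-34201454, plus strand, up to 7 exons), which replaces the chymotrypsin-like subunit, ran from 8.42 to 17.6 CPM in Ctr BSA (median 11.04) and from 7.57 to 12.5 in Ctr PA (median 11.4). The αGlu libraries spanned 10.8 to 18.2 CPM in BSA (median 12.6) and 10.8 to 14.4 CPM in PA (median 12.1). Psmb9 (ENSMUSG00000096727, chr17:34181987-34187764, minus strand, up to 6 exons), which replaces the caspase-like subunit, ran from 5.16 to 7.80 CPM in Ctr BSA (median 6.47) and from 4.01 to 6.59 in Ctr PA (median 6.26). After αGlu, values of 6.13 to 9.02 CPM in BSA (median 6.94) compared with 6.48 to 8.76 CPM in PA (median 6.996). Both genes overlapped between BSA and PA with either ASO.

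Psmb10 (ENSMUSG00000031897, chr8:105935735-105938444, minus strand, up to 8 exons), which replaces the trypsin-like subunit, ran from 6.75 to 14.2 CPM in Ctr BSA (median 9.93) and from 4.65 to 10.8 in Ctr PA (median 9.69). With αGlu the range was 7.87 to 13.9 CPM in BSA (median 10.4) and 9.07 to 11.999 CPM in PA (median 10.6). The PA log2 fold changes of the 3 subunits were -0.12, -0.11 and -0.14 in Ctr cells, with adjusted p from 0.511 to 0.582. In αGlu cells they were -0.11, 0.04 and 0.00, with adjusted p from 0.630 to 0.996.

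**Figure D2:**
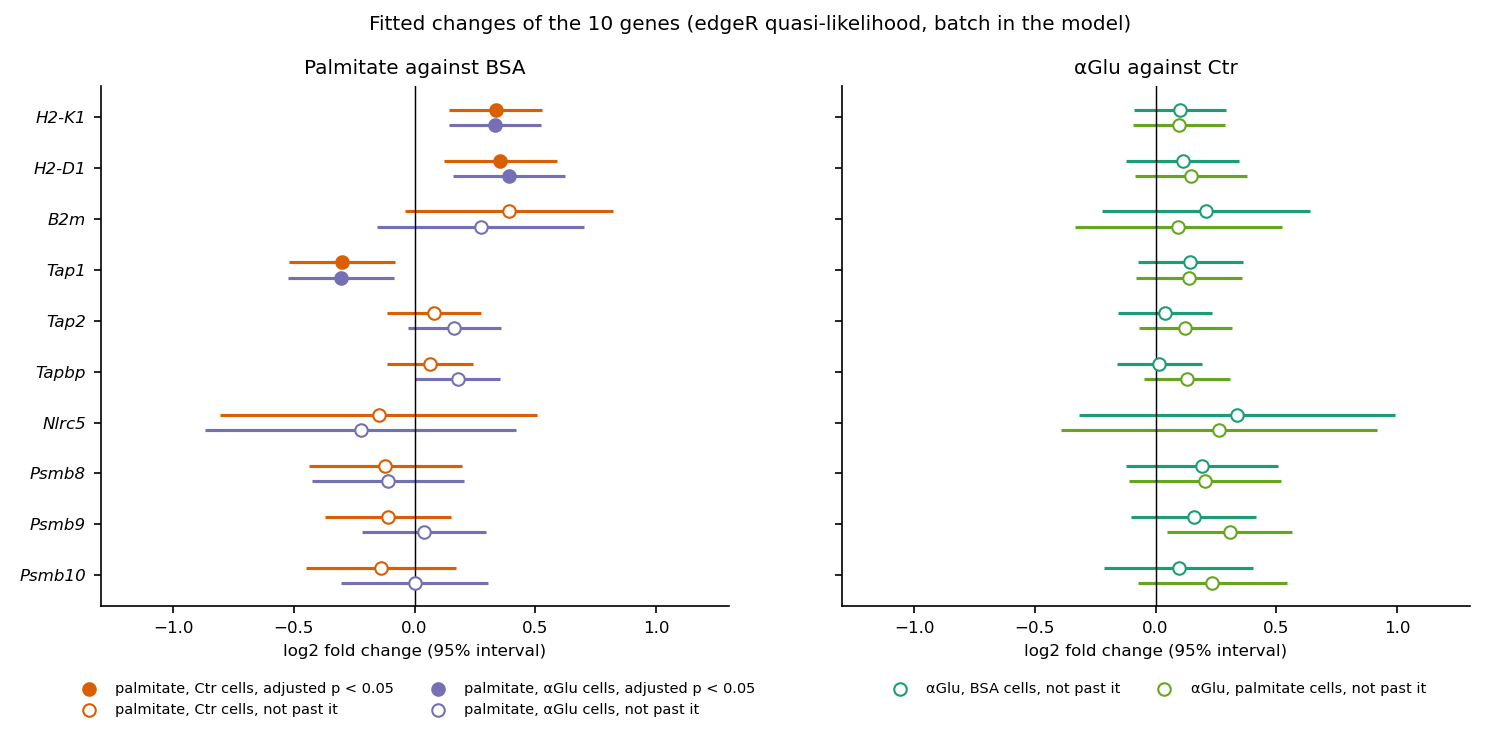
Log2 fold changes (x axis) of the 10 genes with 95% intervals from the edgeR fit, PA against BSA on the left and αGlu against Ctr on the right, with filled points for an adjusted p below 0.05. H2-K1, H2-D1 and Tap1 are filled on the left with both ASOs, and no point is filled on the right, where all 20 points lie above 0.

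No difference between the PA responses under both ASOs was resolved. The difference between both responses was tested for each gene and lay between -0.12 (B2m) and 0.15 (Psmb9), with an adjusted p of 0.999 for each of the 10. For H2-K1 it was -0.00 with a 95% interval from -0.27 to 0.27, for H2-D1 0.04 (-0.29 to 0.36) and for Tap1 -0.00 (-0.31 to 0.31). These intervals leave room for differences about as large as the responses themselves. At an unadjusted p below 0.05, 2.09% of all genes and none of the 10 passed.

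**Figure D3:**
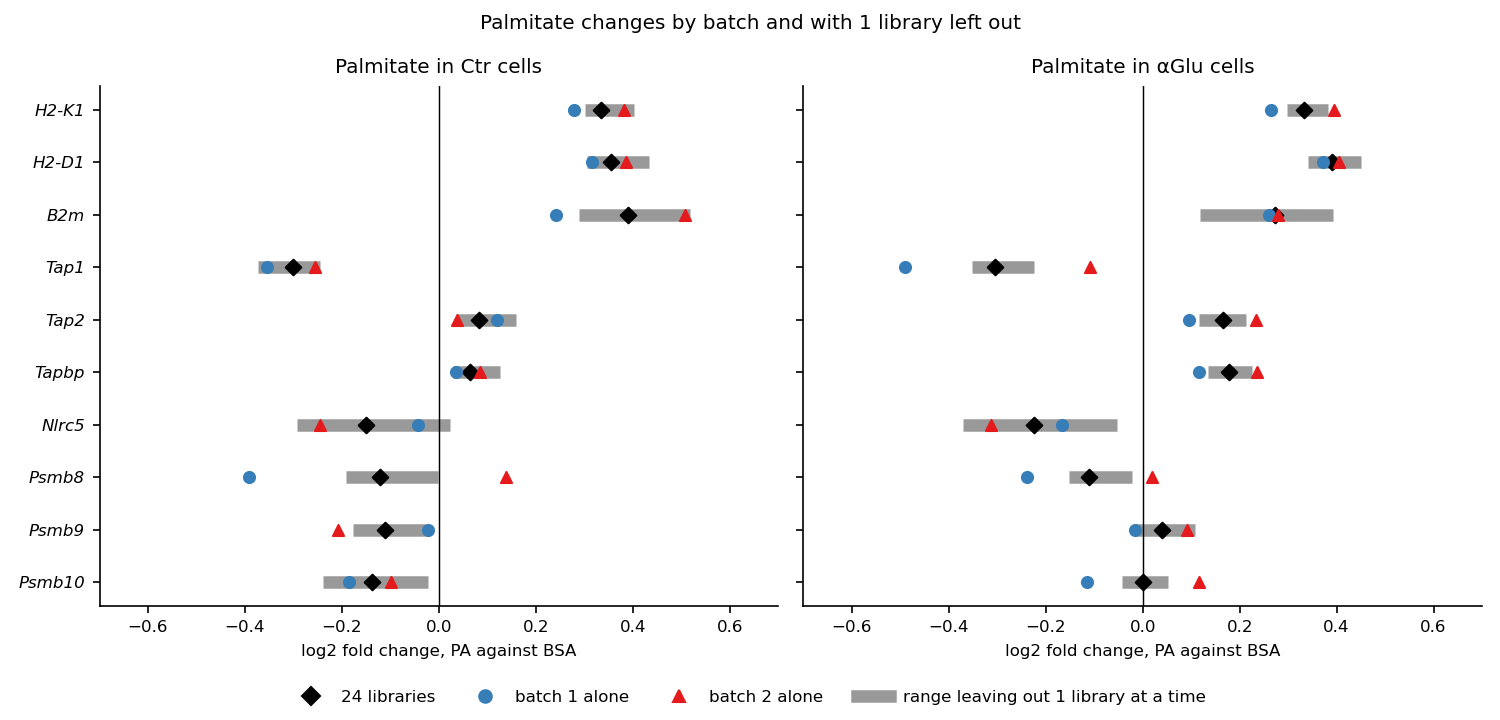
Log2 fold changes (x axis) of PA against BSA in Ctr (left) and αGlu cells (right) for all 24 libraries (diamonds), batch 1 alone (circles) and batch 2 alone (triangles), with grey bars for the range when 1 library at a time was left out. H2-K1, H2-D1, B2m, Tap2 and Tapbp lie right of 0 in both batches and Tap1 and Nlrc5 left of it. Psmb8 changes side between batches with either ASO, and Psmb9 and Psmb10 do so in αGlu cells.

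The constitutive subunits that the immunoproteasome forms replace, Psmb5, Psmb6 and Psmb7, allowed a ratio within each library. In Ctr BSA the TPM of Psmb8 was 5.33% to 9.54% of that of Psmb5 (median 6.84%), that of Psmb9 was 4.72% to 6.50% of Psmb6 (median 5.798%), and that of Psmb10 was 25.7% to 42.9% of Psmb7 (median 31.8%). In Ctr PA the medians were 5.86%, 4.92% and 29.8%, in αGlu BSA 7.85%, 5.84% and 36.1%, and in αGlu PA 6.14%, 5.50% and 33.2%. The immunoproteasome mRNAs were thus the minor forms in every library, with Psmb10 nearest to its counterpart. Over the 3 ratios and 4 comparisons, 12 two-sided exact permutation tests of 6 against 6 libraries gave no adjusted p below 0.05, where the smallest p the design allows is 0.00216. The lowest was that of Psmb8 to Psmb5 for PA in αGlu cells, with a log2 difference of -0.39 (exact permutation p = 0.0216, adjusted p = 0.260), -0.50 in batch 1 and -0.27 in batch 2. The αGlu PA libraries of this ratio ran from 6.26% to 8.10% in batch 1 and from 5.45% to 6.02% in batch 2, and the αGlu BSA libraries from 8.11% to 12.3% and from 6.48% to 7.59%, so the groups overlapped over all libraries but not within either batch. When libraries were exchanged within their batch only, a test added after the values were seen, this difference had an exact permutation p of 0.005, the smallest that test can give, and an adjusted p of 0.06, below which no single one of the 12 differences could fall. None of the 12 passed there either. Psmb5 itself rose with PA in αGlu cells (log2 fold change 0.29, SE 0.092, adjusted p = 0.0204) and was 0.19 in Ctr cells (adjusted p = 0.129).

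**Figure D4:**
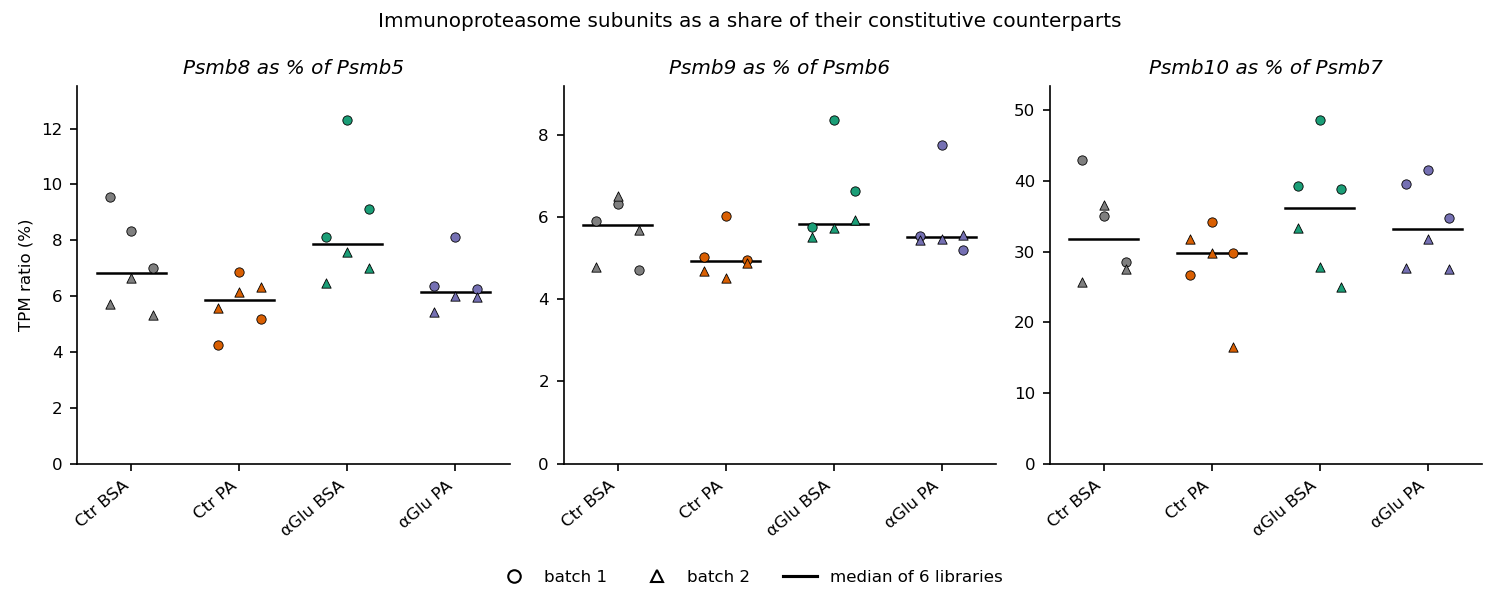
TPM of each immunoproteasome subunit as a percentage of the constitutive subunit it replaces (y axis, from 0), by group, with circles for batch 1, triangles for batch 2 and lines at medians. All libraries lie below 13% for Psmb8 and Psmb9 and below 50% for Psmb10, and the groups overlap.

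None of the 10 genes passed the test for αGlu in this unpaired fit. All 10 fitted changes were nevertheless above 0 in BSA (median log2 fold change 0.13, from 0.02 for Tapbp to 0.34 for Nlrc5) and in PA (median 0.14, from 0.09 for B2m to 0.31 for Psmb9). Over all genes the medians were 0.00 and -0.00. The adjusted p by edgeR was 1.000 for each gene in BSA and 0.993 in PA, and DESeq2 also called 0 of the 10 in each comparison. None of all tested genes passed in either comparison (0% called), and at an unadjusted p below 0.05 2.90% of all genes passed in BSA and 3.38% in PA. Among the 10, that level was reached by 0 genes in BSA and by Psmb9 alone in PA (log2 fold change 0.31, SE 0.124, unadjusted p = 0.0207, adjusted p = 0.993 by edgeR), where 5 of 6 αGlu PA libraries lay above every Ctr PA library.

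The ranges of Ctr and αGlu libraries overlapped for all 10 genes in BSA and in PA. Over all genes, αGlu lay wholly above Ctr for 0.0377% in BSA and 0.0628% in PA, and wholly below it for 0.0377% and 0.163%.

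Pooled over BSA and PA, the changes ran from 0.07 (Tapbp) to 0.30 (Nlrc5), with a median of 0.15. Again 0 of 10 passed by edgeR, beside 0.239% of all genes (0.0565% raised and 0.182% lowered). At an unadjusted p below 0.05, 3.90% of all genes and 1 of the 10 passed, which was Psmb9 (log2 fold change 0.23, SE 0.088, unadjusted p = 0.0143, adjusted p = 0.918 by edgeR). In batch 2 alone the fitted changes of Tap2 (-0.09), Nlrc5 (-0.08) and Tapbp (-0.03) were below 0 in BSA, and those of B2m (-0.17) and Nlrc5 (-0.14) in PA. The 10 genes varied together between libraries (below), so a shared sign is not 10 separate observations.

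Tap1, Nlrc5 and Psmb10 differed between the batches. Tap1 ran from 17.8 to 33.8 CPM in batch 1 and from 11.3 to 18.8 in batch 2, with a log2 fold change of -0.50 (SE 0.074, adjusted p = 3.84e-06). Nlrc5 was lower in batch 2 by -0.60 on the log2 scale (SE 0.222, adjusted p = 0.0269) and Psmb10 by -0.37 (SE 0.104, adjusted p = 0.00436). H2-K1 was the only member with a fitted value above 0 (0.12, adjusted p = 0.134). Thus 3 of 10 were lowered and none raised, beside 25.4% and 26.1% of all genes, and none passed with a fold above 2, beside 6.38%. The Nlrc5 call was lost without S5, S6, S18 or S24, with an adjusted p as high as 0.0591 and a log2 fold change between -0.54 and -0.51. H2-K1 passed without S1 (0.15, adjusted p = 0.0406) and Psmb8 without S11 (-0.27, adjusted p = 0.0251).

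The other genes of the pathway moved with PA as follows. This list and those below were chosen with earlier results of these data known, so their counts are a description. Of 10 genes for peptide loading, trimming and proteasome activation, 5 rose and 0 fell in Ctr cells, where 15.5% of all genes rose and 14.5% fell. Their median log2 fold change was 0.16, beside 0.01 over all genes. These were Tapbpl (0.35), the tapasin-related editor, Erap1 (0.26), the trimming aminopeptidase, the chaperones Canx (0.21) and Calr (0.19), and the thiol reductase Pdia3 (0.15). In αGlu cells, where the median was 0.09 and 14.4% of all genes rose, Tapbpl (0.40) and Calr (0.20) rose. Of 12 tested genes of other class I heavy chains and class I-like proteins, 4 rose and 0 fell in Ctr cells (median 0.33), and 3 rose and 0 fell in αGlu cells (median 0.22). H2-T22, a nonclassical heavy chain, rose by 0.52 (SE 0.075, adjusted p = 1.11e-05) in Ctr and by 0.61 (SE 0.074, adjusted p = 1.73e-06) in αGlu cells. H2-Q1 rose by 0.72 and 0.85 and Mr1, which presents vitamin B metabolites, by 0.43 and 0.24, while H2-M3 rose in Ctr cells (0.32) and was 0.22 in αGlu cells (adjusted p = 0.163), a difference with an adjusted p of 0.999. Of 14 constitutive core proteasome genes, 0 passed in Ctr cells by edgeR and 0 had an unadjusted p below 0.05, and 3 rose in αGlu cells, Psmb2 (0.21), Psmb4 (0.19) and Psmb5.

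Of upstream genes, more fell than rose. Of 22 tested interferon receptor, JAK-STAT, IRF, RFX and NF-kappa B genes, 8 fell and 1 rose with PA in Ctr cells, and 7 fell and 1 rose in αGlu cells, with medians of -0.19 and -0.11. Of all genes, 14.5% fell and 15.5% rose in Ctr cells, and 14.2% fell and 14.4% rose in αGlu cells. Irf9 fell by 0.54 and 0.67 on the log2 scale and Stat2 by 0.37 and 0.61, both parts of the complex that type I interferon activates. Irf1, a direct activator of class I genes, fell by 0.39 and 0.31, and the receptor chain Ifnar1 by 0.27 and 0.25, whereas the other chain, Ifnar2, rose by 0.35 and 0.31. Stat2 and Irf9 were also the genes of this list that rose with αGlu over both treatments, by 0.36 (adjusted p = 0.0221) and 0.50 (adjusted p = 0.0178). In that comparison 0.0565% of all genes rose. Ifng and Ifnb1 had no count in any library.

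Of 30 tested interferon-stimulated genes outside antigen presentation, 2 rose and 2 fell with PA in Ctr cells, and 12 fell and 0 rose in αGlu cells, with medians of -0.24 and -0.53. Of all genes, 14.5% and 14.2% fell, and 15.5% and 14.4% rose. The difference between both PA responses passed for 0 of the 30 genes by edgeR, with an unadjusted p below 0.05 for 3 (median -0.29). For this difference 2.09% of all genes had an unadjusted p below 0.05. With αGlu in BSA, 28 of the 30 were above 0 (median 0.55), as were 50.4% of all genes. At an unadjusted p below 0.05, 20 of the 30 passed, beside 2.90% of all genes, though none passed after adjustment. Over both treatments 3 rose, Oas2, Irf7 and Irgm2, where 0.0565% of all genes did. The median was 0.42, beside 0.15 for the 10 class I and immunoproteasome genes.

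Markers of other cells moved with PA and with αGlu as well, and in bulk libraries fewer cells of a type and less RNA per cell cannot be told apart. In Ctr cells 5 of 6 tested fibroblast and stellate markers fell, and their summed level was 67.2 to 416 CPM in Ctr BSA and 6.89 to 42.6 in Ctr PA. Of 15 tested macrophage and myeloid markers, cells that hold much class I, 11 fell, with sums of 87.5 to 425 CPM (highest in S21) and 88.5 to 134. Without S21, H2-K1 and H2-D1 still passed with PA in Ctr cells. Of 9 endothelial markers 1 fell, with sums of 29.3 to 89.4 and 18.1 to 71.3 CPM. In αGlu cells 3 fibroblast markers, 1 myeloid and 1 endothelial marker fell. With PA, 14.5% of all genes fell and 15.5% rose in Ctr cells, and 14.2% fell and 14.4% rose in αGlu cells. The difference between both PA responses was above 0 for all 15 myeloid markers (median 1.85), of which 8 had an unadjusted p below 0.05 and 0 passed by edgeR. In BSA 14 of these 15 were lower with αGlu (median -0.99) and in PA all 15 were higher (median 0.64), with 6 and 2 at an unadjusted p below 0.05 and 0 passing in either. At that unadjusted level, 2.09% of all genes passed for the difference, 2.90% for αGlu in BSA and 3.38% for αGlu in PA. Glia markers fell with αGlu over both treatments in 6 of 7 genes (median -2.98), beside 0.182% of all genes. Their sums were 8.04 to 95.2 CPM in Ctr BSA, 11.4 to 69.5 in Ctr PA, 6.17 to 25.7 in αGlu BSA and 5.29 to 10.6 in αGlu PA. With PA, 4 of 6 acinar and 2 of 5 ductal markers fell under either ASO, as did 3 of 7 markers of alpha, delta and PP cells in Ctr and 1 in αGlu cells. No gene of the fibroblast, myeloid, endothelial and glia lists was at 0 throughout a group. Cd8a and Nkg7, T and natural killer cell markers, were at 0 in Ctr BSA, Ctr PA and αGlu BSA. Of the 9 lymphocyte markers only Cd79a was tested. It fell with PA in Ctr cells (log2 fold change -1.25, adjusted p = 9.69e-05 by edgeR) and was -0.54 in αGlu cells (adjusted p = 0.0543 by edgeR). Lymphocyte markers summed to 2.11 to 7.53 CPM in Ctr BSA and 0.776 to 1.95 in Ctr PA. Acinar markers summed to 2514 to 17784 CPM in batch 1 and 194 to 526 in batch 2. Beta-cell markers summed to 83829 to 151648 CPM over all libraries, so the defining markers of the labelled tissue were abundant. Of these 9 markers, 3 rose and 3 fell with PA in Ctr cells, where Ins1 (-0.44), Ins2 (-0.34) and Mafa (-0.41) fell. In αGlu cells 3 rose and 2 fell. All 9 were higher in batch 2, as were 26.1% of all genes. The part of these cells in the values of the 10 genes was not tested.

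Beyond groups and batches, the 10 genes rose and fell together from library to library. Group and batch were fitted as separate terms and removed. All 45 pairs then correlated positively across the 24 libraries, with a median Pearson's r of 0.62 (from 0.075 to 0.958). These values are given as a description since libraries of 1 experiment may share a source. H2-K1 and H2-D1 were the closest pair (r = 0.958, Spearman's rho = 0.956), and Tapbp followed H2-K1 (r = 0.920) and Psmb8 H2-K1 (r = 0.874). The mean standardised deviation of the 10 genes was lowest in Ctr PA S23 (-1.26), and next in S9 (-1.16), S10 (-1.12), S11 (-1.08) and S12 (-1.06), which are 1 library of each group. In S9, S10 and S12 all 10 genes lay below the value fitted from group and batch as separate terms, and in S11 9 did. The highest were αGlu BSA S2 (1.26) and Ctr BSA S1 (1.04). These deviations are in TMM-scaled CPM, and S1 had the lowest total count and the lowest scaling factor (0.853). By TPM, S1 lay below the Ctr BSA median for H2-K1, B2m, Tap2, Nlrc5 and Psmb9 and above it for the other members.

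**Figure D5:**
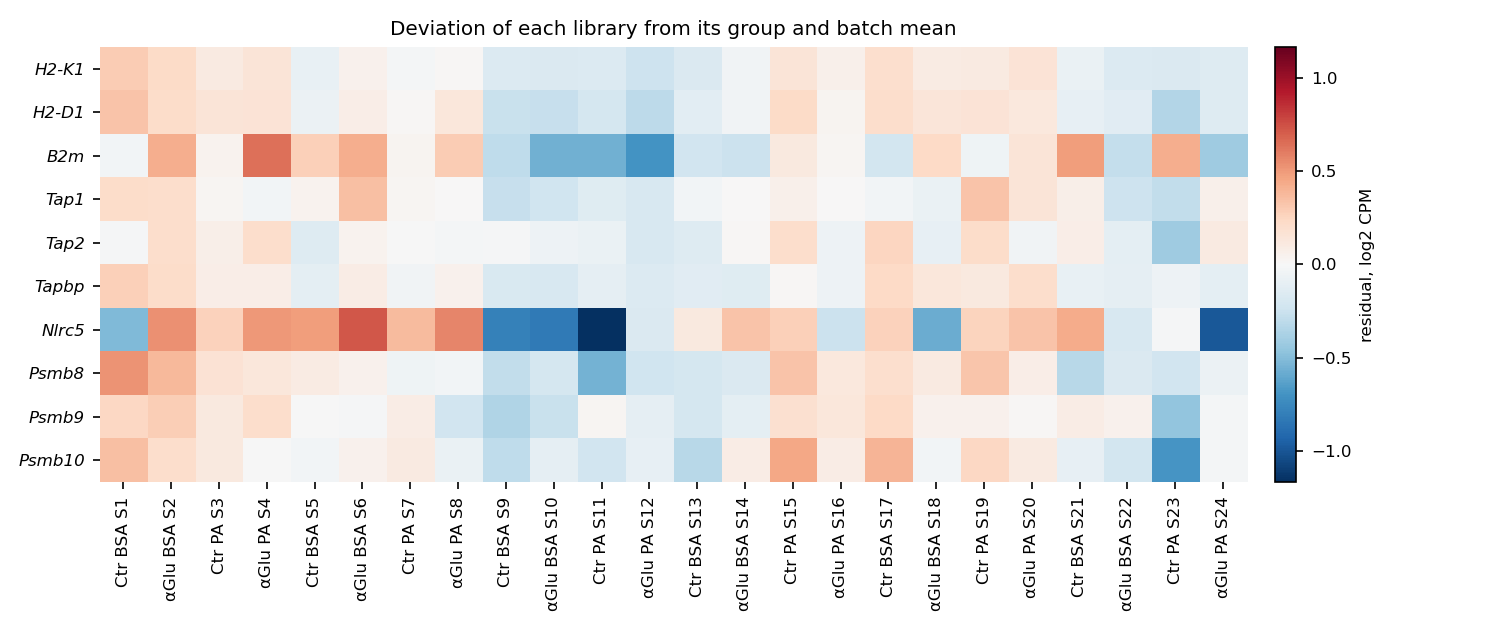
Deviation of the 10 genes (rows) in every library (columns, S1 to S24) from a fit with separate terms for group and batch. Values are in log2 CPM, red above the fit and blue below it. Columns S9 to S12 are blue in nearly every row and S2 and S3 red, and Nlrc5 and B2m deviate most.

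Outside the 10, the genes whose deviations followed their mean most closely over the 24 libraries were H2-T23 (r = 0.904, rho = 0.894), a nonclassical class I gene, Cebpd (0.882), Grn (0.858), Lgals3bp (0.857), Ier5l (0.855), Phf19 (0.842), Pdyn (0.838), Kcnmb1 (0.828), Oasl1 (0.828) and Des (0.825). Without the 2 libraries farthest from the median the r of these genes ran from 0.783 to 0.878. By single genes, H2-K1 and H2-D1 were both nearest to Lgals3bp (r = 0.869 and 0.893), B2m to Gm20559 (0.920), Tap1 to Oasl1 (0.807), Tap2 to Mfsd12 (0.876), Tapbp to Enpep (0.890), Nlrc5 to Depdc1a (0.820), Psmb8 to Myl9 (0.862), Psmb9 to Agpat4 (0.840) and Psmb10 to Mus81 (0.884). Interferon-stimulated genes had a median r of 0.54 with the mean of the 10 and endothelial markers of 0.61, beside 0.02 for all genes outside the 10, 0.06 for beta-cell markers and -0.28 for acinar markers.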

How the data were processed

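Libraries of dispersed mouse islet cells were made from mRNA with a stranded kit. The authors' software was the RNA-seq Analysis Portal of QIAGEN, and they deposited, per gene and library, the count of reads on exons, with RPKM, TPM and CPM values. Neither the aligner and annotation nor the use of strand in counting is given in the sources used here. The submitters' processing notes name GRCm38. The deposited counts were tested, with empty cells read as 0, and the TPM values computed by the authors served to compare levels between genes. The 48 RPKM and CPM columns were not used, nor was 1 line without a gene. Library totals ran from 18214719 to 35001979 counts, and read counts carry no molecular identifiers, so counting error alone understates the spread.

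The tools were edgeR 4.0.16, DESeq2 1.42.0 and limma 3.58.1 under R 4.3.3. Genes passing filterByExpr (minimum count 10) were scaled by TMM and fitted by a quasi-likelihood negative binomial model with group and batch. Benjamini-Hochberg adjusted p below 0.05 was called. Log2 CPM used a prior count of 2. Ratios used exact permutation tests. The fit was also run on simulated data with changes of at least 2-fold and no batch effect. That run does not cover changes as small as those called here. Gene models were GENCODE M21, and promoter sequences RefSeq GRCm38.p6. The antisense sequence came from a supplementary table of the study. Transcript words of 50 bases were compared between genes. Named genes were all 10 members, in other lists those past the adjusted p or the 3 of smallest p, and the 10 likest genes plus 1 for each member. The members and lists were chosen with earlier results of these data known. Motifs were searched on both strands, and TGACG lies within TGACGC. The longer kappa B motif, TTTCACTTC and TGACG were added after the sequences were seen. Alternatives were DESeq2, upper-quartile scaling, no filter, a filter of 10 counts in 12 libraries, no batch term, the compared groups alone, each batch alone, a fold above 2 with an unadjusted p below 0.05, log2 CPM ratios, ratios permuted within batch (added after the values were seen) and each library left out.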

Additional observations from a re-analysis of the deposited data

Results flagged for a closer look

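Of 40 combinations of gene and group with 6 libraries, 3 held a library far from the others, all of them Ctr PA S23 as the lowest, and chance alone flags about 1 in 20 such groups. For Tap2, S23 was at 19.5 CPM and the other 5 libraries between 26.7 and 30.2, a gap of 0.717 of the range. For Psmb9 it was at 4.01 CPM against 5.76 to 6.59, a gap of 0.727, and for Psmb10 at 4.65 CPM against 8.49 to 10.8, a gap of 0.715. The limit for 6 values is 0.625. S23 also had the lowest sums of ductal (152 CPM) and acinar (194 CPM) markers of all libraries. Its part in the values was not tested, but without S23 the PA changes of H2-K1 and H2-D1 in Ctr cells still passed.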

How the results depend on the processing

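No paired analysis was possible because the groups share no replicate numbers in the labels. The study's reporting summary nevertheless describes the groups of a replicate as sharing a passage or an animal. DESeq2, upper-quartile scaling and both other filters called the same number of the 10 genes as the reported fit in every comparison. Within batch 1 alone 0 of 10 passed with PA in Ctr and 0 in αGlu cells, and within batch 2 alone 0 and 1; the smaller number of libraries comes with these fits. With a fold above 2 and an unadjusted p below 0.05, 0 of 10 passed for PA in Ctr, PA in αGlu and batch. With single libraries left out, 2 to 3 of 10 passed with PA in Ctr and in αGlu cells, 2 to 4 between batches, 0 to 0 in the other comparisons of the 10 genes and 0 to 0 among the ratios. Tap1 was also lost without the batch term (-0.31 in Ctr, adjusted p = 0.269, and -0.33 in αGlu cells, adjusted p = 0.237) and, in Ctr cells, in the fit of the compared groups alone (adjusted p = 0.0527).

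Values that changed sign were all of uncalled genes, and the cause was not tested. With batch 2 alone, Psmb8 was 0.138 for PA in Ctr and 0.0188 in αGlu cells; Tap2, Tapbp and Nlrc5 were -0.0945, -0.0312 and -0.0751 for αGlu in BSA, B2m and Nlrc5 -0.174 and -0.142 for αGlu in PA, and Nlrc5 -0.109 for αGlu over both treatments. With batch 1 alone, Psmb9 was -0.0166 and Psmb10 -0.114 for PA in αGlu cells, and the difference between responses 0.0201 for B2m. Psmb10 for PA in αGlu cells, near 0, was -0.0102 by DESeq2, -0.0112 without the batch term, -0.0019 with upper-quartile scaling and with the stricter filter, and -0.000152 in the groups alone. Of the log2 ratios in batch 2, Psmb8 to Psmb5 was 0.0298 for PA in Ctr cells and -0.0492 for αGlu in PA, and Psmb10 to Psmb7 was 0.0219 for PA in αGlu cells and -0.0541 for αGlu in BSA.

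With a library left out, values crossed 0 for PA in Ctr cells in Nlrc5 (-0.29 to 0.0223), for PA in αGlu cells in Psmb9 (-0.0120 to 0.11) and Psmb10 (-0.0418 to 0.0512), for αGlu in BSA in Tap2 (-0.00673 to 0.10) and Tapbp (-0.0308 to 0.0785), for αGlu in PA in B2m (-0.0554 to 0.21), between batches in B2m (-0.0946 to 0.0420) and Tapbp (-0.0453 to 0.0166), and for the Psmb10 to Psmb7 ratio with PA in αGlu cells (-0.15 to 0.0453).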
